A study of Mus musculus with 2 samples.

Results

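The genes of the core spliceosome were followed in embryonic mouse hearts with and without the splicing factor Srsf10. The 39 genes were taken from a list of proteins of small nuclear ribonucleoproteins (snRNPs) and of U2AF and SF1 at the 3′ splice site. The list also holds proteins of the SF3A and SF3B complexes and of the PRP family. It was chosen with earlier results of these data known. The genes were matched to the deposited Ensembl identifiers by symbol. All 39 were found among the 17646 genes listed in either library, and all had at least 1 RPKM (reads per kilobase of gene length, scaled to library size), as did 12329 genes in all, called expressed below. The study holds 2 RNA-seq libraries of heart at embryonic day 13.5, both from mice on a BALB/c background: 1 wild type (WT) and 1 homozygous Srsf10 knockout (SRSF10-/-). The hearts were frozen in liquid nitrogen and RNA was extracted with Trizol. The labels name no Cre or transgene and do not give the number or sex of the embryos, nor whether hearts were pooled. With 1 library per genotype no difference could be tested against the spread between animals, so "higher" and "lower" describe these 2 libraries. The 95% intervals cover counting error only. They treat each read as an independent count, which could not be checked because the reads carry no molecular identifiers.

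The libraries held 39.6 M (WT) and 38.9 M (SRSF10-/-) unique reads. Srsf10 was at 35.3 RPKM in the WT library against 1.45 in the other, a 24.3-fold lower level (21.2 to 28.0), which matched the labels. The 10 cardiomyocyte markers looked up, Actc1 and Tnnt2 among them, were all present, with summed levels of 17983 and 16538 RPKM. Summed marker levels differed most for macrophages and leukocytes (54.3 and 74.8 RPKM), skeletal muscle (141 and 193 RPKM) and hepatocytes (7.04 and 4.09 RPKM). Of 7 expressed macrophage and leukocyte markers 6 were at least 1.2-fold higher, against 10.1% of all expressed genes. Cx3cr1 had 4.29 and 4.04 RPKM. Hepatocyte markers held only 394 and 150 reads. Alb had 88 and 0, Afp 145 and 4, Apoa1 19 and 2, and Serpina1a 2 and 0. Ahsg had 79 and 68 reads, while Apoa2 had 39 and 42 and Ttr 22 and 34. The skeletal muscle sum rested on Tnni2 (24.4 and 96.8 RPKM): the other 8 markers summed to 117 and 95.8 RPKM, with Ckm at 102 and 75.1. Erythroid markers summed to 3050 and 2851 RPKM, 12 proliferation markers to 610 and 606, and lung and foregut epithelial markers to 0.54 and 0.63. In 4 Y-linked genes 2943 WT reads stood against 7 knockout reads, so that sex and genotype cannot be told apart. No core spliceosome gene lies on the X or Y chromosome. For the genes of the further spliceosome lists below, the chromosome was not looked up. The part of these differences in the values below was not tested, and in whole hearts fewer cells of a type and less RNA per cell cannot be told apart.

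The spliceosome removes introns in a series of assembly steps. U1 snRNP pairs with the 5′ splice site, while SF1 and the U2AF dimer mark the branch point and the 3′ splice site. U2 snRNP then replaces SF1 at the branch point, and a preassembled particle of U4, U6 and U5, the tri-snRNP, joins. Unwinding of U4 from U6 and the entry of the Prp19 complex (NTC) form the catalytic centre. The Sm proteins build the ring that U1, U2, U4 and U5 share. Srsf10 is an SR-type protein known to act with U1 at the 5′ splice site, and its contacts include the U1-70K protein encoded by Snrnp70.

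Many core spliceosome genes have near-identical copies in the genome, which bears on any count of uniquely mapped reads. In the GENCODE M21 transcripts of GRCm38, 10 of the 39 genes shared at least 20% of the 31-base words of their longest coding transcript with a gene located elsewhere, and 12 shared none. Processed pseudogenes were the leading partner for 9 of these 10 genes. The gene with the lowest ratio below, Snrpg, is shown because its whole coding sequence of 231 bases (chromosome 6) occurs without a difference in the processed pseudogene Gm8186 on chromosome 17. For U2af2 (chromosome 7), the other gene at least 1.2-fold lower, bases 182 to 331 of the coding sequence are shown beside the pseudogene Gm5846 on chromosome 3, with the 5 differing bases in capitals. The stretch starts at the first coding word that the copy also holds.
Snrpg coding sequence, identical in Gm8186: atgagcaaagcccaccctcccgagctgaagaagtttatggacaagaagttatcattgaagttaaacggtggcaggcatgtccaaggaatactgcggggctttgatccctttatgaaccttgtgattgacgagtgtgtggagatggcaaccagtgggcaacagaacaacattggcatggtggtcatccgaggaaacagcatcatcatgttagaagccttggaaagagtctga
U2af2, coding bases 182 to 331: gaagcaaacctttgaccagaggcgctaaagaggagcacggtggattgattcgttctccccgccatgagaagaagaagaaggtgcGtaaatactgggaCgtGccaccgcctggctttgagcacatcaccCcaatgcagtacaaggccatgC
Gm5846, aligned bases: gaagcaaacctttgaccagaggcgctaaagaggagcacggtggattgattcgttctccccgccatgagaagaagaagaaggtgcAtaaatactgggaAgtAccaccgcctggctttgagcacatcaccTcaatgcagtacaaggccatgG

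Neither pseudogene is listed in either table. The coding sequence of Snrpg equals 31.2% of the length listed for the gene, and reads covered 89.2% of that length with and 90.4% without Srsf10. Counted reads therefore reached into the stretch that Gm8186 shares, which reads that overhang from its unique flanks can also do. How reads lying wholly inside the shared stretch were treated is not given in the sources used here. For U2af1, 63.9% of words occur elsewhere, for Sf3b4 55.0%, for Cdc5l 49.5%, for Snrpa 44.3% and for U2af2 42.2%. The remaining genes at 20% or more are Snrpc, Snrpd1, Snrpe, Snrpf and Snrpg, between 21.95% and 29.5%. In addition, 78.3% of the words of Snrpf lie in genes annotated over the same place, Ccdc38 among them, which had 32 and 46 reads. Whether strand was used in counting is not stated, so these cannot be separated.

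Promoter sequence was at hand in RefSeq (GRCm38.p6, 250 bases before to 50 after the start) for 32 of the 39 genes, in 37 entries, since some genes have more than 1 start. The letters CCGGAAG, a core of the motif bound by ETS factors, were present on either strand in 37.8% of these entries, in 17.3% of the 12295 entries of expressed genes and in 8.86% of all 32851 entries. Members had a median of 24 CpG dinucleotides per entry, against 21 for expressed genes and 7 for all. TATAAA was present in 5.41% of members' entries and 7.08% of those of expressed genes, CCAAT in 48.6% and 37.6%, and the NRF1-type letters GCATGCGC in 5.41% and 5.23%. Each motif was searched on both strands, and none contains another. Of the 13 member genes with the ETS-type letters, 6 had a knockout to wild-type log2 ratio above 0 and 7 below. Promoters of Snrpg and Prpf3 are shown because these genes had the lowest and the highest ratio of all 39. Prpf3 has 2 entries: the one shown holds the ETS-type letters, and the other, from a second start, does not. Capitals mark the ETS-type letters and, in Snrpg, also CCAAT on the reverse strand (ATTGG). A match is a description of the letters, not of a bound site.
Snrpg, chr6:86371290-86371589, plus strand: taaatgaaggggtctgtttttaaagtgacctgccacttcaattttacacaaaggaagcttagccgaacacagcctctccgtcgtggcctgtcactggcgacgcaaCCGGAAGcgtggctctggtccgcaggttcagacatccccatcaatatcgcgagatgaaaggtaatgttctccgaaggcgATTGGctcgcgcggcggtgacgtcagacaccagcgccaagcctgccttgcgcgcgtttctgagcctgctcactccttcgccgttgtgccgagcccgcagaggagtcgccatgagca
Prpf3, chr3:95855704-95856003, minus strand: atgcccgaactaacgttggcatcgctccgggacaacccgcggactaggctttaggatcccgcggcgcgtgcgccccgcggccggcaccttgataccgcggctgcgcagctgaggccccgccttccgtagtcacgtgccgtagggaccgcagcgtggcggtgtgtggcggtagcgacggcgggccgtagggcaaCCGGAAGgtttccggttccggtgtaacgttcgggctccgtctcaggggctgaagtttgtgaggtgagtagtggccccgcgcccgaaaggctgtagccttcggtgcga

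In RPKM the core spliceosome genes ranged widely even though their proteins act in joint complexes. In the wild type they ran from 6.80 RPKM for Prpf4 to 179.9 for Snrpd2, a 26.5-fold span, and in the knockout from 6.48 to 166 RPKM for the same genes. The median gene had 38.7 RPKM with and 37.1 without Srsf10, against 9.88 and 9.80 for all expressed genes. By mean level the members lay between percentiles 36.9 and 97.7 of the expressed genes, with a median of 86.9. The Sm class was highest by RPKM, with a median of 96.2 in the wild type, followed by U2AF and SF1 with 88.6. U1 genes had a median of 41.6, NTC genes 31.9, U2 genes 27.9 and tri-snRNP genes 22.4 RPKM. Together the 39 genes took 0.475% of wild-type reads and 0.486% of knockout reads.

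**Figure D1:**
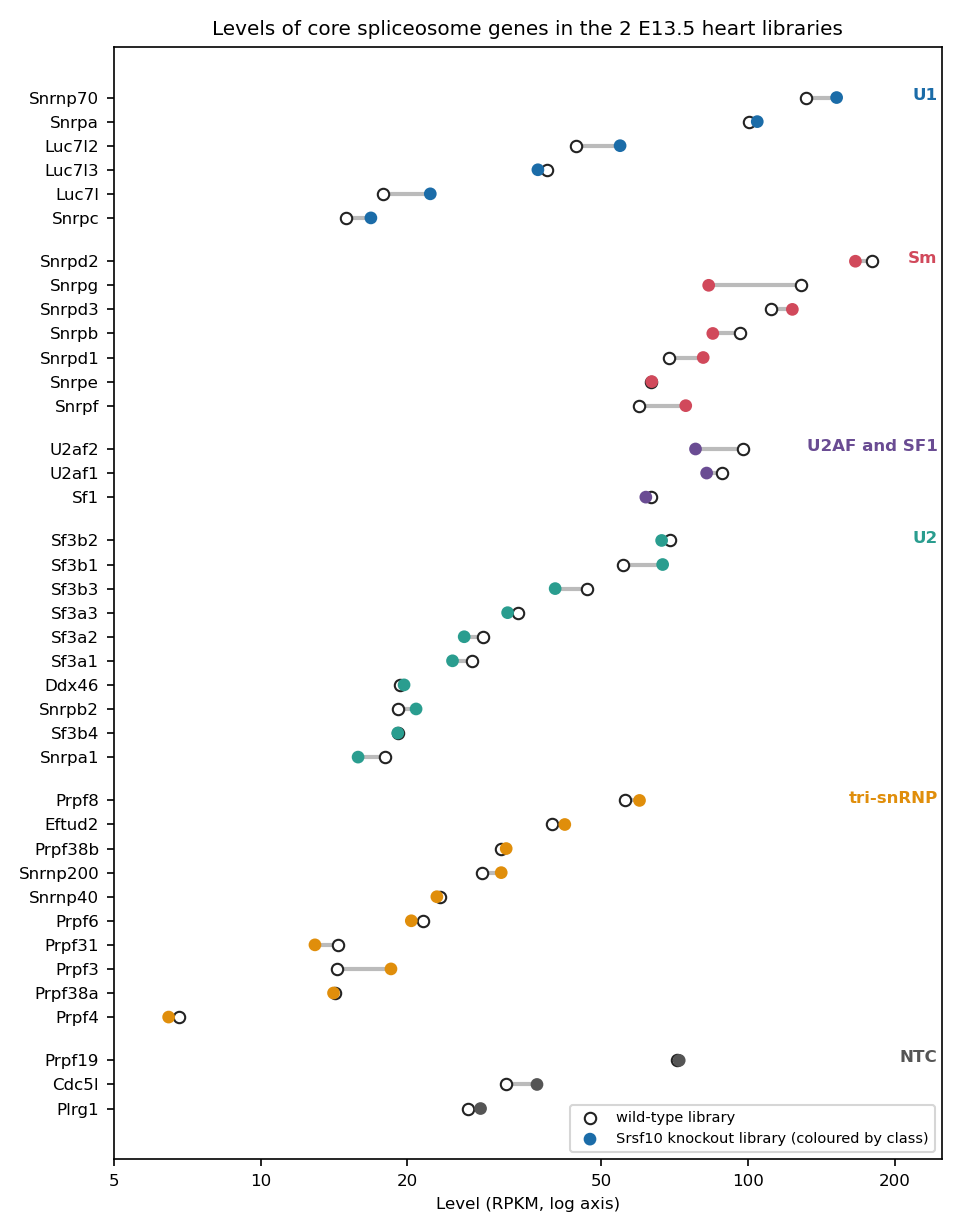
Level of each core spliceosome gene in RPKM (log axis) in the wild-type library (open circles) and the Srsf10 knockout library (filled circles, coloured by class), ordered by wild-type level within each class. In both libraries Snrpd2 is highest (179.9 and 166 RPKM) and Prpf4 lowest (6.80 and 6.48 RPKM).

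As a whole the core spliceosome had close to equal levels in the hearts: summed reads of the 39 genes had a knockout to wild-type ratio of 1.02 (1.02 to 1.03). The median log2 ratio, knockout over wild type, of RPKM + 1 was 0.00 over the 39 genes, with 20 above 0 and 19 below, and -0.01 over all expressed genes. The middle 50% of members lay between -0.09 and 0.14, and that of expressed genes between -0.14 and 0.13. The median absolute log2 ratio was 0.11 for members and 0.13 for expressed genes. On this scale 5 of 39 members (12.8%) were at least 1.2-fold higher in the knockout: Prpf3, Snrpf, Luc7l, Luc7l2 and Sf3b1. Among expressed genes 10.1% were, and among those with at least 5 RPKM, the range in which all members lie, 7.36%. At least 1.2-fold lower were 2 members (5.13%), Snrpg and U2af2, against 10.4% of expressed genes and 9.78% of those with at least 5 RPKM. The counting interval of the read ratio excluded 1 for 27 members (69.2%), 15 higher and 12 lower, against 63.4% of genes with at least 5 RPKM.

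**Figure D2:**
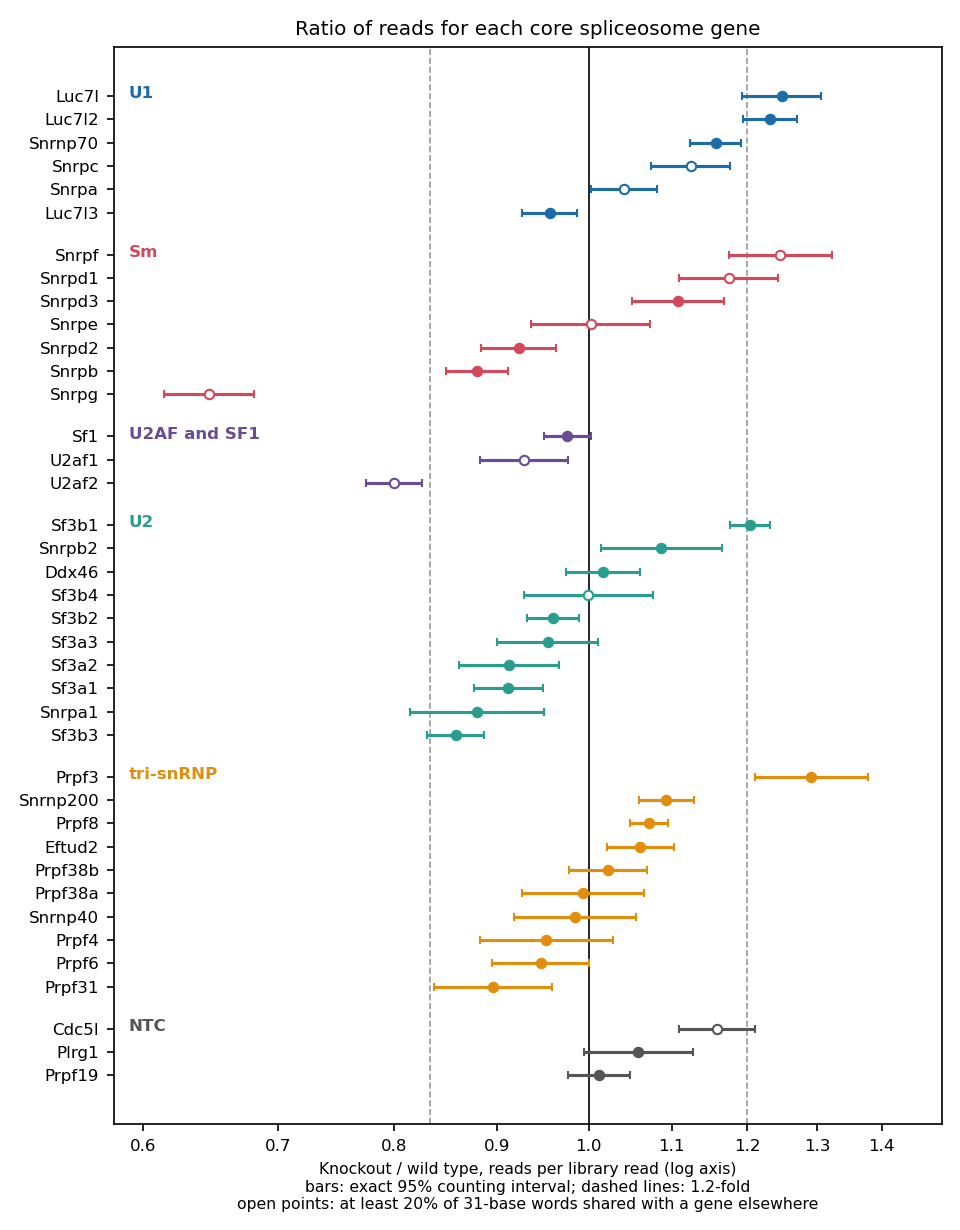
Knockout over wild-type ratio of reads per library read (log axis) for each gene, ordered within its class, with exact 95% counting intervals as bars. Open points share at least 20% of their 31-base words with a gene elsewhere, and dashed lines mark 1.2-fold: Snrpg at 0.647 stands farthest from 1, and Prpf3 at 1.29 is the highest.

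U1 genes were mostly higher in the knockout heart. Of the 6 genes 5 had a ratio above 1 with an interval that excluded 1, and the class median was 0.18 on the log2 scale, the highest of the 6 classes. Among genes with at least 5 RPKM 27.6% had an interval above 1 and 35.8% had one below. Snrnp70, the U1-70K protein that binds the first stem-loop of U1 RNA, had 8722 reads (131 RPKM) in the WT library and 9905 (152 RPKM) without Srsf10, 1.16-fold higher (1.12 to 1.19). None of its words occur elsewhere. Snrpa, the U1 protein of the second stem-loop, had 100.3 and 104 RPKM, 1.04-fold higher (1.003 to 1.08). Snrpc, the U1 zinc finger protein that steadies pairing with the 5′ splice site, had 15.0 and 16.8 RPKM, 1.12-fold higher (1.07 to 1.18). The U1-associated LUC7-like proteins help choose among 5′ splice sites, and their genes did not go one way. Luc7l had 3492 reads (17.9 RPKM) and 4278 reads (22.3 RPKM), 1.25-fold higher (1.19 to 1.31). Luc7l2 had 7475 reads (44.4 RPKM) and 9038 reads (54.6 RPKM), 1.23-fold higher (1.19 to 1.27). Luc7l3 had 38.7 and 37.1 RPKM, 1.05-fold lower (1.01 to 1.08). Summed over the class, reads were 1.12-fold higher (1.101 to 1.13).

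The Sm ring genes differed in direction. Each ring holds 1 copy of the 7 proteins, yet their genes spanned log2 ratios from -0.62 to 0.31, and from -0.18 to 0.31 without Snrpg. Snrpg (SmG) had 3767 reads (128 RPKM) in the WT library and 2393 (83.0 RPKM) without Srsf10, 1.55-fold lower (1.47 to 1.63), at percentile 1.17 of the ratios of expressed genes. This is the gene with the identical pseudogene copy shown above. Snrpb, which encodes SmB and SmB′, had 96.2 and 84.7 RPKM, 1.14-fold lower (1.096 to 1.18). Snrpd2, the member with the highest RPKM, had 4369 and 3959 reads, 1.08-fold lower (1.04 to 1.13). Snrpe had 63.3 and 63.5 RPKM, a ratio of 1.002 (0.936 to 1.07).

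The other 3 ring genes were higher in the knockout. Snrpf (SmF) had 2040 reads (59.8 RPKM) and 2495 reads (74.5 RPKM), 1.25-fold higher (1.17 to 1.32). Snrpd1 had 68.9 and 80.9 RPKM, 1.17-fold higher (1.11 to 1.24). Snrpd3, which has few shared words (0.73%), had 111 and 123 RPKM, 1.11-fold higher (1.05 to 1.17). SmE, SmF and SmG are known to join the ring as a subcomplex, and their genes had ratios of 1.002, 1.25 and 0.647. Summed Sm reads were 1.06-fold lower (1.04 to 1.08), which rested on Snrpg: without it the ratio was 1.004 (0.984 to 1.02), a comparison added after the values were seen.

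The 3 genes that mark the 3′ end of the intron all had ratios below 1, 2 of them with an interval below 1. Of genes with at least 5 RPKM, 35.8% had an interval below 1 and 45.2% had a log2 ratio above 0. U2af2, the large U2AF subunit that binds the polypyrimidine tract, had 8459 reads (97.6 RPKM) in the WT library and 6643 (78.0 RPKM) without Srsf10, 1.25-fold lower (1.21 to 1.29). U2af1, the small subunit that contacts the terminal AG of the intron, had 88.6 and 82.3 RPKM, 1.08-fold lower (1.02 to 1.13). Sf1, the branch point protein of early complexes, had 63.2 and 61.7 RPKM with an interval that included 1 (1.02-fold lower, 0.998 to 1.05). As given above, the U2AF genes share many words with copies elsewhere, while Sf1 shares no word with a gene elsewhere.

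U2 genes lay on both sides of equality, with a class median of -0.06. Of the 10 genes 3 had a log2 ratio above 0, Sf3b1, Snrpb2 and Ddx46, and the intervals of Sf3b1 and Snrpb2 excluded 1. The other 7 were below 0, 5 of them with an interval below 1. Among genes with at least 5 RPKM 45.2% were above 0 and 35.8% had an interval below 1. Sf3b1, the HEAT-repeat protein that clamps the branch point duplex, had 13612 reads (55.5 RPKM) and 16089 reads (66.8 RPKM), 1.204-fold higher (1.18 to 1.23). It lies just past the 1.2-fold line. The other SF3B genes of the core list were not higher. Sf3b3, a large propeller-fold scaffold protein, had 46.8 and 40.2 RPKM, 1.16-fold lower (1.13 to 1.203), the lowest ratio of the class. Sf3b2 had 69.3 and 66.5 RPKM, 1.04-fold lower (1.01 to 1.07), and Sf3b4 had 1451 and 1424 reads, a ratio of 0.9997 (0.929 to 1.08). The 3 SF3A genes, which tie SF3B to the U2 particle, were at 0.912 (Sf3a1), 0.913 (Sf3a2) and 0.954 (Sf3a3), the last with an interval that included 1 (0.901 to 1.01).

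The genes of the U2-specific pair that binds a stem-loop of U2 RNA went opposite ways. Snrpa1 had 18.02 and 15.9 RPKM, 1.14-fold lower (1.05 to 1.23), and Snrpb2 19.2 and 20.8 RPKM, 1.09-fold higher (1.01 to 1.17). Ddx46, the ATPase that remodels U2 for branch point binding, had 4355 and 4348 reads, a ratio of 1.02 (0.975 to 1.06). Summed U2 reads had a ratio of 1.01 (0.998 to 1.02). Sf3b1 supplied 13612 of the 49509 wild-type reads, and without it the ratio was 0.937 (0.923 to 0.952), also a comparison added after the values were seen.

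In the tri-snRNP, the large U5 proteins were slightly higher and most others did not differ beyond counting error. Of the 10 genes 5 had an interval that excluded 1, 4 above it and 1 below. Among genes with at least 5 RPKM 63.4% had one, 27.6% above 1 and 35.8% below. Prpf8, the scaffold around the catalytic centre and the member with the most reads in the list, had 16477 reads (55.9 RPKM) and 17334 reads (59.9 RPKM), 1.07-fold higher (1.05 to 1.09). Snrnp200, the helicase that unwinds U4 from U6, had 28.5 and 31.2 RPKM, 1.09-fold higher (1.06 to 1.13). The GTPase gene Eftud2 had 39.7 and 42.1 RPKM, 1.06-fold higher (1.02 to 1.102). Prpf6, which bridges U5 and U4/U6, had a ratio of 0.947 (0.895 to 1.001), and Snrnp40, a WD-repeat protein of U5, 0.985 (0.918 to 1.06).

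Among the U4/U6 proteins, Prpf3 had the highest ratio of all 39 genes, with 1666 reads (14.3 RPKM) in the WT library and 2112 (18.5 RPKM) without Srsf10, 1.29-fold higher (1.21 to 1.38). Its direct partner gene Prpf4, the member with the lowest RPKM, had 1407 and 1316 reads, a ratio of 0.953 (0.883 to 1.03). Prpf31, which joins U4 in a complex with Snu13, had 14.4 and 12.9 RPKM, 1.12-fold lower (1.04 to 1.19). Prpf38a, which enters with the tri-snRNP, and the related Prpf38b had ratios of 0.994 (0.927 to 1.07) and 1.02 (0.978 to 1.07). The class median was 0.01, with 5 genes above 0 and 5 below, where 45.2% of genes with at least 5 RPKM were above 0. Summed reads of the class were 1.05-fold higher (1.04 to 1.07).

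The 3 NTC genes all had ratios above 1, but only that of Cdc5l had an interval that excluded 1. Of genes with at least 5 RPKM, 45.2% had a log2 ratio above 0 and 27.6% had an interval above 1. Cdc5l, the Myb-like subunit, had 3772 reads (31.9 RPKM) and 4290 reads (36.9 RPKM), 1.16-fold higher (1.11 to 1.21). Its words are shared with a set of copies on chromosome 10. Prpf19, the ubiquitin ligase of the complex, had 71.4 and 72.3 RPKM, a ratio of 1.01 (0.977 to 1.05). Plrg1, a WD-repeat subunit, had 26.7 and 28.3 RPKM, a ratio of 1.06 (0.995 to 1.13). The NTC median was 0.08.

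**Figure D3:**
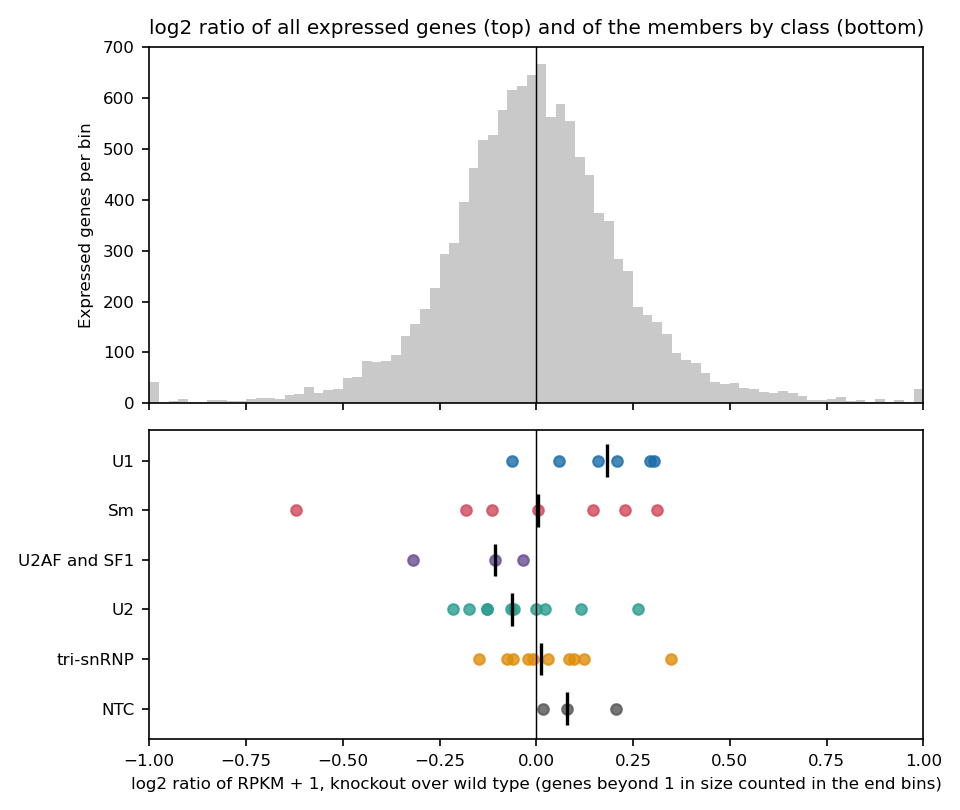
Number of expressed genes per bin of log2 ratio of RPKM + 1 (top) and the ratio of each member by class (bottom, 1 point per gene, black bars are class medians). Medians run from -0.11 for U2AF and SF1 to 0.18 for U1, and Snrpg at -0.62 is the lowest point.

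Set side by side, the class medians were 0.18 (U1), 0.08 (NTC), 0.01 (tri-snRNP), 0.00 (Sm), -0.06 (U2) and -0.11 (U2AF and SF1). Every one of them is smaller in size than 0.26, the log2 of 1.2-fold. The ranges of the classes overlapped, except for NTC (0.02 to 0.21) against U2AF and SF1 (-0.32 to -0.03). These differences between classes have no replicate check. Without the 10 genes with copies elsewhere the order changed: the medians were then 0.25 (U1), -0.11 (Sm, 3 genes) and -0.03 (Sf1 alone), so that Sm was lowest.

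The share of a gene's length covered by reads differed for a few members. It is a deposited value that does not tell which part of a gene was covered, and RPKM does not separate splice forms. In 34 of the 39 genes the covered share differed by less than 5 points, between -2.98 and 3.24. In 5 genes (12.8%) it was at least 5 points higher in the knockout, against 8.51% of expressed genes, and in none at least 5 points lower, against 8.98%. Expressed genes are those reaching 1 RPKM, while all members reached at least 5 RPKM. Of the 39 members 25 were above 95% covered in both libraries, so these shares do not compare like with like. Snrnp40 went from 65.5% covered with 1621 reads in the wild type to 85.8% with 1567 reads in the knockout. A gain this large was seen in 0.763% of expressed genes. Prpf38a went from 83% with 1626 reads to 95.9% with 1586 reads. In both genes the read numbers were thus nearly equal. Prpf3 went from 79.3% to 92.5% covered, Snrpb from 84.8% to 93.9%, and Snrpc by 5.09 points. Snrpf was covered over only 50.9% and 51.2% of its length, the lowest values among members.

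**Figure D4:**
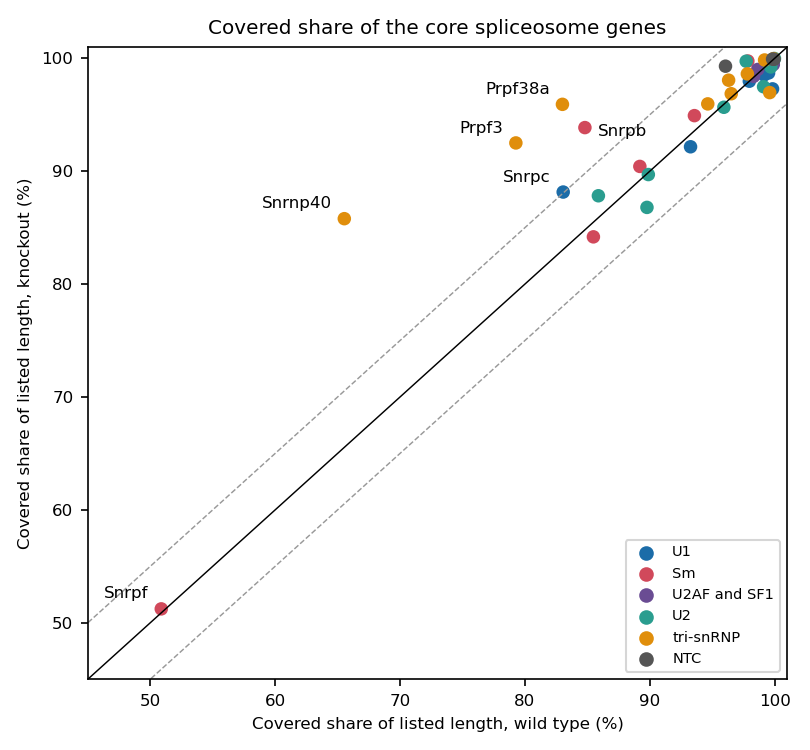
Share of the listed gene length covered by reads, in percent, in the wild type (horizontal) and knockout (vertical), 1 point per gene coloured by class. The solid line is equality and the dashed lines are 5 points to either side: 5 genes lie above the upper line, led by Snrnp40 at 65.5% and 85.8%, and none lies below the lower line.

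The members are spread over 13 chromosomes, and 4 of them lie on chromosome 4 with Srsf10 in the GRCm38 annotation. Snrnp40 is 5.47 Mb from Srsf10, Sf3a3 11.1 Mb, Prpf38a 27.3 Mb and Prpf4 73.4 Mb. Their ratios of 0.985, 0.954, 0.994 and 0.953 all had intervals that included 1. These genes had between 1316 and 2428 reads per library, at the low end for members. Of genes with at least 5 RPKM, 63.4% had an interval that excluded 1. Whether position near Srsf10 bears on the ratios was not tested.

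The rest of the spliceosome, in 8 further lists of 102 genes, also had a median near 0. Of 100 expressed genes 3 were at least 1.2-fold higher on the RPKM + 1 scale and 5 at least 1.2-fold lower, against 10.1% and 10.4% of all expressed genes. Their median log2 ratio was -0.01, with 46 above 0, and 48.2% of all expressed genes were above 0. LSm proteins, which bind U6 RNA and take part in mRNA decay, had a median of -0.12 over 7 genes. Lsm4, the most abundant, had 71.6 and 63.8 RPKM, and Lsm7 had 227 and 175 reads, 1.27-fold lower (1.04 to 1.56). Other U1 and 5′ splice site factors had a median of 0.01 over 9 genes, none past 1.2-fold in either direction. In this list Rbm25 had 56.2 and 61.4 RPKM, and the cap-binding gene Ncbp2 27.2 and 23.1 RPKM. Other U2 factors had a median of -0.07 over 12 genes. Phf5a, a small SF3B subunit, had 57.4 and 45.7 RPKM, 1.26-fold lower (1.17 to 1.34), while Puf60, the most abundant, had 100.5 and 93.9 RPKM.

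Other tri-snRNP factors had a median of -0.05 over 16 genes, with 2 lower and 1 higher past 1.2-fold. The U6 recycling factor Sart3 had 19.2 and 15.3 RPKM, 1.25-fold lower (1.18 to 1.33), and the helicase gene Ddx23 24.6 and 20.1 RPKM, 1.22-fold lower (1.16 to 1.29). Both are named here after their values were seen. Mfap1a had 739 and 1009 reads, 1.39-fold higher (1.26 to 1.53), but it has the near-identical paralogue Mfap1b, so its value is uncertain. Snu13, the most abundant, had 96.6 and 84.9 RPKM. NTC-related factors had a median of 0.01 over 16 genes and second-step factors with helicases one of 0.08 over 11, with no gene past 1.2-fold on the RPKM + 1 scale in either list. Cwc27 had 8.33 and 6.84 RPKM, a log2 ratio of -0.25 on that scale and 1.22-fold lower by reads (1.09 to 1.36). In these lists Cwc15 had 60.8 and 64.7 RPKM, Dhx16 9.52 and 11.3, and the abundant export and splicing helicase gene Ddx39b 177 and 156 RPKM.

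The minor spliceosome, which removes the rare U12-type introns, had a median of -0.02 over 12 genes. Rbm41 had 708 and 941 reads, 1.35-fold higher (1.23 to 1.49), and Zcrb1, the most abundant, 31.4 and 25.7 RPKM, 1.22-fold lower (1.15 to 1.303). Genes of snRNP assembly, including the SMN complex that loads the Sm ring, had a median of -0.02 over 17 expressed genes. The import adaptor gene Snupn had 255 and 314 reads, 1.25-fold higher (1.06 to 1.49), and Strap, the most abundant, 47.9 and 48.3 RPKM.

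**Figure D5:**
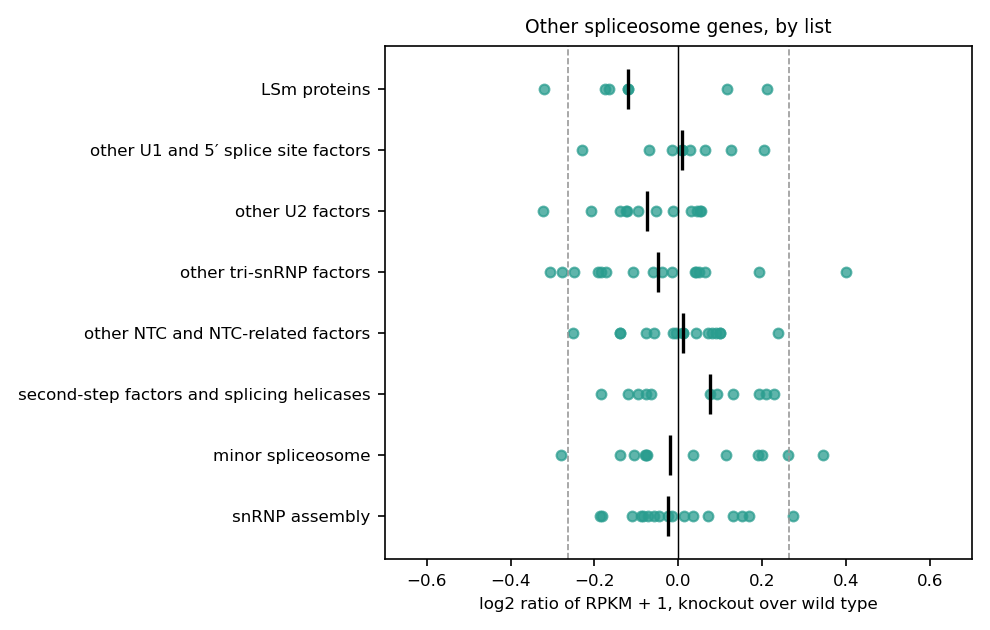
log2 ratio of RPKM + 1, knockout over wild type, of the expressed genes in 8 further spliceosome lists, 1 point per gene, with list medians as black bars and 1.2-fold as dashed lines. Medians lie between -0.12 (LSm proteins) and 0.08 (second-step factors and helicases), and 8 of the 100 points lie beyond the dashed lines.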

How the data were processed

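RNA-seq of 1 wild-type and 1 Srsf10 knockout heart library was analysed from gene tables. The submitters' processing notes list Bowtie 0.12.2 and mm9. Which annotation, counter and strand setting were used is not given in the sources used here. The deposited counts are whole unique reads per Ensembl gene, per the file headers, and sum to the total in each header. Genes absent from 1 of the tables were set to 0 reads. The deposited RPKM equals count over listed length and that total, and the deposited covered share is a percent of the listed length. Symbols were matched on Ensembl identifier for 17196 of 17646 genes. Members and lists were chosen with earlier results of these data known.

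Log2 ratios use RPKM + 1 and cover genes reaching 1 RPKM in either library. Ratios of reads per library read have exact conditional binomial (Clopper-Pearson) 95% intervals. The calculation was run on simulated Poisson counts. Those hold no duplicate reads and no spread between animals, so only the calculation was checked. No test across genes was run, since each genotype has 1 library. All members were described. The genes named with full values were those past 1.2-fold, the extremes of each class and, in each wider list, the most abundant gene and that with the largest absolute log2 ratio. Shared words of 31 bases came from GENCODE M21 transcripts and promoters from RefSeq. Alternatives covered pseudocount, filter, scaling (including TMM from edgeR 4.0.16), fold and genes with copies. Python 3.11.15 with scipy 1.17.1 was used.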

Additional observations from a re-analysis of the deposited data

How the results depend on the processing

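The 195 values of single members under 2 other pseudocounts and 3 other scalings stayed within their counting intervals. The 3 scalings multiply knockout values by 1.01 (median ratio of expressed genes), 0.999 (TMM) and 1.01 (reads outside mitochondrial and globin genes). None moved a class median beyond a typical member's counting interval. For the scalings both outcomes were fixed in advance. Their largest shift is 0.017 on the log2 scale, while the narrowest counting interval, that of Prpf8, has a half-width of 0.031. Leaving out the 10 genes with shared words moved the U1 median to 0.25, the Sm median to -0.11 with 3 genes left, and the U2AF and SF1 median to -0.035 (Sf1 alone). It also left 0 members at least 1.2-fold lower, as Snrpg and U2af2 are among those genes, and turned the median of all members to -0.01. Means in place of medians gave -0.15 for U2AF and SF1 and -0.03 for Sm. With a pseudocount of 5, 3 members were at least 1.2-fold higher. At 1.5-fold 0 were higher and 1 lower, and at 2-fold 0 were higher and 0 lower. Under TMM scaling 4 were at least 1.2-fold higher. Without Snrpg the summed Sm ratio turned to 1.004, and without Sf3b1 the summed U2 ratio was 0.937. Members had between 1249 and 17334 reads, and for 12 of the 39 the counting interval held 1, while variation between animals is not measured. No paired analysis was possible because each group has 1 library, and for the same reason no replicate could be left out.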
